A study of Mus musculus with 16 samples.

Results

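A set of 230 genes was almost silent in wild-type (WT) mouse embryonic stem (ES) cells and clearly expressed after doxorubicin. They were chosen from the 22375 genes of the deposited table of normalized counts, in which the reads on a gene's exons are divided by a size factor for each library. The rule required a mean of at most 50 normalized counts over the 2 replicates of untreated WT cells and of at least 200 over the 2 replicates of treated WT cells. Of the 232 genes that met both limits, 2 were left out because their symbols begin with Wnt or Hox. The rise in WT cells therefore chose the genes and is given as a description. The response of Cfp1-/- cells was not used in the choice, and it is the comparison that was tested.

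The study sequenced ribosomal RNA-depleted total RNA of 4 groups, with 2 biological replicates each. WT cells were the E14Tg2a line and the mutant was a Cfp1 -/- line of the same 129/OLA strain label. Each line was either left untreated or given 1 µM doxorubicin for 6 h, and all groups grew on gelatin with serum and LIF, the cytokine that holds ES cells undifferentiated. Each genotype was 1 line, so a difference between the lines cannot be told apart from a difference between WT and mutant alleles, and the sources used here do not say whether replicates were separate cultures. P-values then measure the spread between these samples, which may be technical.

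Doxorubicin inserts into DNA and traps topoisomerase II on it, which leaves double-strand breaks. The breaks activate kinases that stabilise the transcription factor p53, and p53 binds DNA at sites made of a pair of similar half-sites and activates genes of cell cycle arrest and apoptosis. Cfp1, encoded by Cxxc1, binds unmethylated CpG dinucleotides and belongs to the Set1 complex, which methylates lysine 4 of histone H3 at the starts of active genes. The comparison asks whether genes that start from near silence reach their induced level in cells without Cfp1.

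The total counts of the biological replicates lay between 14880589 and 29422711. Cxxc1 had 1412 and 1117 raw counts in untreated WT cells and 616 and 829 in treated WT cells. It had 4 and 3 raw counts in untreated Cfp1-/- cells and 5 and 1 in treated ones, so the libraries carried the genotype of their labels. In the sample made by the second sequencing of treated Cfp1-/- replicate 1, 439 of 529 well-counted genes on the distal part of chromosome 19 and on X and Y had no counts, against 0 of 7791 such genes elsewhere. This gap touched 12 of the 230 genes, and their values are given with and without it. The runs of treated WT replicate 1 also differed by more than counting error, with a chi-square of 9.61 per degree of freedom. Of 10 ES cell markers every marker was detected in each library, and their summed level was between 68836 and 93109 normalized counts in untreated WT cells and between 26706 and 35825 in treated ones. In Cfp1-/- cells the sum was 73883 and 74040 without doxorubicin and 24750 and 32382 with it. In bulk RNA, fewer cells of a type and less RNA per cell cannot be told apart.

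Short sequences near the starts of these genes are shown first, because a p53 site match was one of the features that the choice of genes did not use. Both strands were searched within 2 kb of each annotated gene start for a pair of adjacent 10-base p53 consensus half-sites, 20 bases in all, with at most 2 mismatches and with the C and the G of each CNNG core intact. The sites below are those with 1 mismatch and those of the genes that rose most in Cfp1-/- cells, together with the site of Fas, the death receptor that is a classical p53 target. Capitals mark the CNNG cores, and the sequences were read from the NCBIM37 (mm9) assembly on the strand of the gene.
Acaa1b: gagCATGccttggCAAGctc
Adam8: cagCATGtccaggCTTGcct
Calhm2: gggCAAGcctaggCAAGatc
Pnmal2: aggCTAGcctggcCTTGctt
E230028L10Rik: gggCATGttcctgCTTGccc
Adra2b: ggaCAAGtagggaCTTGcct
Fosl1: agaCTTGcctaagCATGtga
Ccdc135: gggCATGgctggaCCTGctt
Map3k13: acaCAGGtctaaaCAAGccc
Micall2: gatCCTGcctagaCAAGctc
Fas: gggCATGtacaaaCATGtca

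The first 4 of these sites had 1 mismatch to the consensus and the others had 2. The Fas site lay at chr19:34366854-34366873, in an intron 1715 bases after the gene start, and the Fosl1 site at chr19:5449011-5449030, in an intron 1318 bases after the start. The Acaa1b site was also intronic, at chr9:119065122-119065141. The Pnmal2 site at chr7:17529695-17529714 and the Calhm2 site at chr19:47212941-47212960 lay between genes, 326 and 167 bases before the start. Distances run to the centre of the site. Of the 230 genes, 31 (13.5%) had such a match, against 682 of all 15758 tested genes (4.33%) in windows of the same length. The share was 12.3% among 357 genes that doxorubicin raised at least 4-fold in WT cells from a mean above 50. It was 4.16% among 4162 tested genes that were near-silent in untreated WT cells and stayed under 200 when treated. A list of 64 known p53 targets held a match in 25% of its genes. A match is a description of the letters and not evidence of binding.

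The gene starts themselves differed from those of most expressed genes. A start was called CpG-rich where the 1000 bases around it had a GC content of at least 50% and a ratio of observed to expected CpG of at least 0.6. This held for 72 of the 230 genes (31.3%), for 59.7% of all tested genes and for 61.1% of the genes raised from above 50. Among the near-silent genes that stayed under 200 it held for 27.8%. Both extremes occurred among the 10 genes with the largest fitted rise in Cfp1-/- cells. Fam123a had the highest ratio of these, at 0.840, and E230028L10Rik the lowest, at 0.0658. The 250 bases before their starts show the difference, with each CG in capitals.
Fam123a: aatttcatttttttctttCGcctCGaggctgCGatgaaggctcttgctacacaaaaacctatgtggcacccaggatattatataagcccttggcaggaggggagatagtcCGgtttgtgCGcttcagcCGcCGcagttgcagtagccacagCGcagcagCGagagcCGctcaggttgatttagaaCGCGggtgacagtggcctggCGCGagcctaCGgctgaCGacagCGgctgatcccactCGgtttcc
E230028L10Rik: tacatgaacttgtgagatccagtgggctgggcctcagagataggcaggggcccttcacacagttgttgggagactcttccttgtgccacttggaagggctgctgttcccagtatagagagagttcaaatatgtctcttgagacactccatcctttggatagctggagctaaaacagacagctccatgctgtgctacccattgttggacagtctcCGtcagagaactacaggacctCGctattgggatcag

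The Fam123a stretch, at chr14:60996834-60997083 on the plus strand, held 18 CG pairs, and the E230028L10Rik stretch, at chr4:155164298-155164547 on the plus strand, held 2. Fam123a, which is also known as Amer2 and regulates Wnt signalling, had 5.10 and 19.8 normalized counts in untreated WT cells, 199 and 288 in treated WT cells, 2.78 and 5.92 in untreated Cfp1-/- cells and 266 and 256 in treated Cfp1-/- cells. E230028L10Rik had 3 and 0 raw counts in untreated WT cells and 205 and 159 in treated ones. In Cfp1-/- cells it had 6 and 3 raw counts without doxorubicin and 218 and 244 with it. Both genes, 1 with a CpG-rich and 1 with a CpG-poor start, went from near 0 to over 150 counts in every treated library. They were picked for a large fitted rise in Cfp1-/- cells, and the rule fixed their rise in WT cells. The pair therefore cannot show whether the rise depends on the CpG content of the start, which was not tested.

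**Figure D1:**
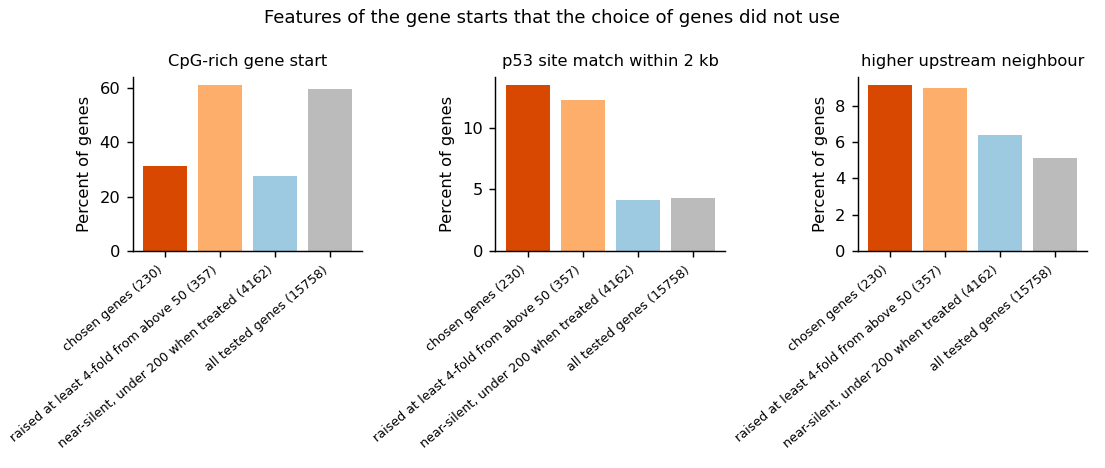
Percent of genes with a CpG-rich start, with a p53 site match within 2 kb of the start, and with a same-strand upstream neighbour within 20 kb that was called higher in Cfp1-/- cells, for 4 sets of genes with their sizes in parentheses. The 230 genes stand with the near-silent genes in CpG content (31.3% and 27.8%) and with the genes raised from above 50 in p53 site matches (13.5% and 12.3%).

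The rise of these genes was present in Cfp1-/- cells. All 230 passed the filter on low counts, and 223 of them (97.0%) were called higher in treated than in untreated Cfp1-/- cells, at an adjusted p under 0.05 and a fold change of at least 2.5 in edgeR's quasi-likelihood test. By the same criteria 18.6% of all 15758 tested genes were called higher and 4.0% lower. Genes at or below a mean of 50 in untreated WT cells were called higher more often than that, in 44.9% of the 4434 tested, although a low gene passes the filter most easily when it is high in some group. Of the 357 genes raised from above 50 in WT cells, 93.6% were called. The fitted log2 fold change of the 230 genes in Cfp1-/- cells had a median of 3.50, with quartiles of 2.77 and 4.29, and the median over all tested genes was 0.01. In WT cells, where the rule set the change, the median was 3.90.

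The groups separated in nearly every gene. In 229 of 230 genes both treated Cfp1-/- replicates lay above both untreated ones, which was so in 38.8% of all tested genes. The median of the 230 normalized counts was 24.2 and 22.9 in the untreated WT replicates and 320 and 314 in the treated ones. It was 35.2 and 30.4 in the untreated Cfp1-/- replicates and 341 and 389 in the treated ones. The level of treated Cfp1-/- cells was within 2-fold of that of treated WT cells in 185 genes, and the median ratio of the treated means was 1.11. Per kilobase of exon, the genes had a median of 85.8 normalized counts in treated WT cells and 99.97 in treated Cfp1-/- cells, beside 104 over all tested genes in treated WT cells.

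**Figure D2:**
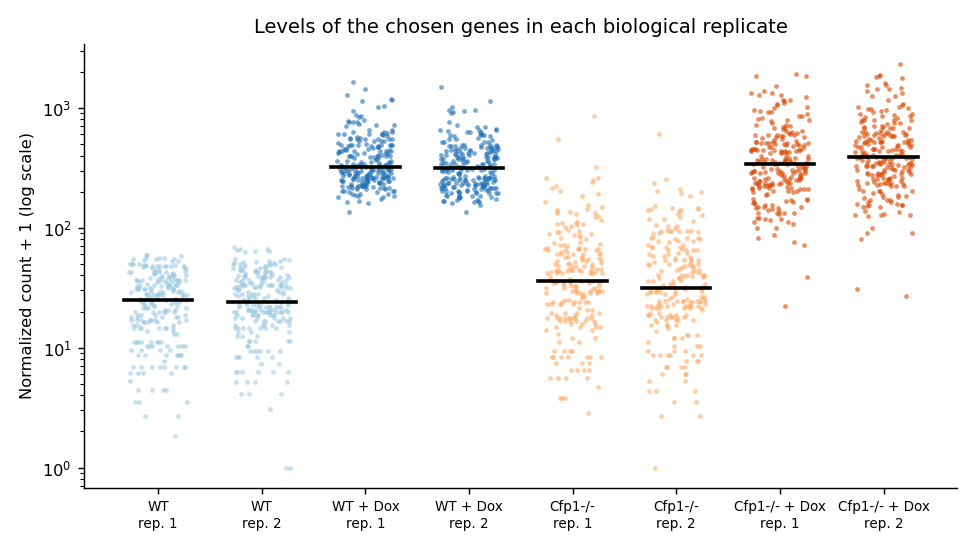
Normalized count plus 1 on a log scale for the 230 genes (points) in each of the 8 biological replicates, with the median as a bar. Medians were 22.9 to 35.2 in the 4 untreated replicates and 314 to 389 in the 4 treated ones. Untreated Cfp1-/- replicates spread further upward than untreated WT replicates, but the rule limited the mean of the untreated WT replicates only.

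The limits of the rule picked out a larger and partly different set in Cfp1-/- cells. In all, 296 genes, 1.33% of the table, had a mean of at most 50 untreated and at least 200 treated in that line, and 121 of them were among the 230. The shared genes made up 52.6% of the WT set and 40.9% of the Cfp1-/- set. Of the 109 that missed, 71 exceeded 50 in untreated Cfp1-/- cells but reached 200 when treated, 35 stayed under 200 when treated but not above 50 untreated, and 3 missed both limits. Most of these still rose, since 66 of the 71 and 34 of the 35 were called higher. Untreated levels were higher in Cfp1-/- than in WT cells in 168 of the 230 genes, with a median log2 difference of 0.57 against 0.01 over all tested genes. The fitted log2 fold change was smaller in Cfp1-/- cells in 168 genes and larger in 62, with a median difference of -0.46. The rule fixed a low untreated and a high treated level in WT cells only, which favours both of these directions, so neither was tested. The fitted changes of both lines had a Spearman correlation of 0.64 over the 230 genes, a description only, since genes are no replicates of each other.

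**Figure D3:**
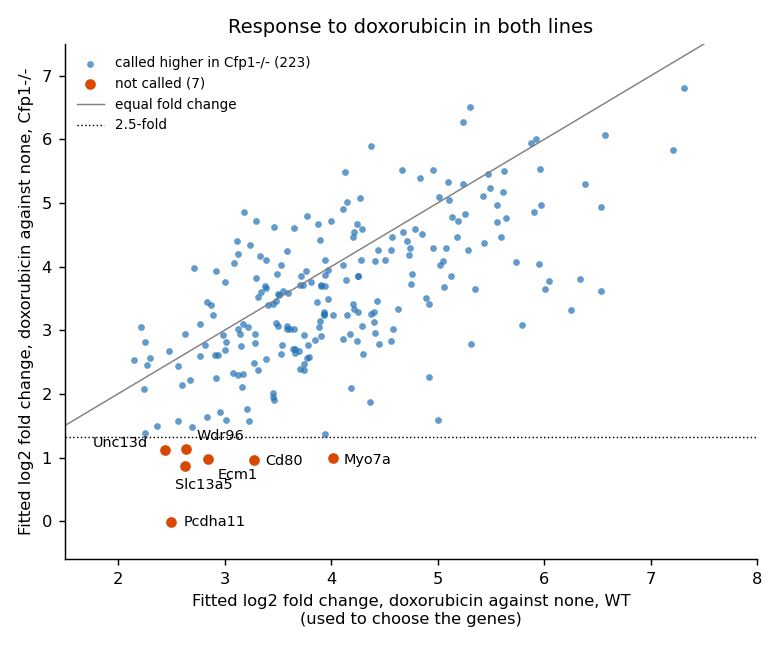
Fitted log2 fold change after doxorubicin in WT cells (horizontal, used to choose the genes) and in Cfp1-/- cells (vertical) for each of the 230 genes, with the 7 that were not called in Cfp1-/- cells named. The line marks equal change, with 168 genes below it and 62 above, and the dotted line marks 2.5-fold.

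Genes at the limits of the rule were not set apart from their neighbours. Neu3, Itga4 and Cpm had untreated WT means of 49.3, 49.6 and 49.8, just inside the limit, and Plk5, Adcyap1r1 and Col9a3 had 50.1, 50.4 and 50.5, just outside it. Them5, Slit1 and Sec1 had treated WT means between 200 and 202, just inside, and Exoc3l2, Rom1 and Efnb3 had 199, 199 and 198, just outside.

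Transcription factors and cofactors made up 23 of the 230 genes, and all 23 were called higher in Cfp1-/- cells, with a median log2 fold change of 3.86. Zfp750 (chr11:121372292-121380647), a zinc finger factor that drives epidermal differentiation, reached the highest count of the 230 in treated WT cells, with 55.2 and 38.6 normalized counts untreated and 1636 and 1140 treated. In Cfp1-/- cells it had 261 and 202 untreated and 1157 and 993 treated, a log2 fold change of 2.26 ± 0.24 (SE, adjusted p = 7.1e-05 by edgeR). The treated levels of the lines lay side by side, and the untreated Cfp1-/- replicates lay above the untreated WT replicates. Fosl1 (chr19:5447703-5455945), which encodes the AP-1 subunit Fra-1, had 22.9 and 20.8 counts in untreated WT cells, 1157 and 939 in treated WT cells, 23.2 and 27.9 in untreated Cfp1-/- cells and 915 and 891 in treated ones. The fitted log2 change in Cfp1-/- cells was 5.18 ± 0.22 (adjusted p = 2.2e-06 by edgeR), and the treated and untreated replicates of that line did not overlap.

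Other factors in this group belong to tissues far from the ES cell. Gcm1, the factor that specifies syncytiotrophoblast in the placenta, had 29.7 and 43.8 counts in untreated WT cells and 768 and 764 in treated ones, and 44.5 and 23.7 against 394 and 333 in Cfp1-/- cells. The treated level of Gcm1 was thus lower in both Cfp1-/- replicates than in both WT replicates. Foxj1, which switches on the genes of motile cilia, rose from 40.8 and 21.1 to 822 and 700 in Cfp1-/- cells and had 35.7 and 45.9 against 474 and 685 in WT cells. Pou4f3, a factor of inner ear hair cells, had 5.56 and 5.92 counts in untreated and 209 and 247 in treated Cfp1-/- cells. Myt1, a neural zinc finger factor, went from 7.42 and 5.07 to 352 and 472, a log2 fold change of 6.07 ± 0.53, and was among the 10 largest. Scx, the tendon factor scleraxis, had 1.85 and 4.23 counts in untreated and 131 and 154 in treated Cfp1-/- cells. Creb3l1, an endoplasmic reticulum-bound factor of secretory cells, differed widely between treated WT replicates, at 937 and 407, and had 418 and 519 in treated Cfp1-/- cells.

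Markers of other cell types moved with the treatment to different extents. In WT cells the 8 epidermal markers summed to between 27.2 and 48.0 normalized counts without and to 317 and 445 with doxorubicin, of which Krt5 alone was 271 and 342. In Cfp1-/- cells that sum was between 101 and 120 untreated and 245 and 358 treated. The terminal epidermal genes Lor, Ivl and Krt1 had 3 raw counts or fewer in every library. The 7 trophoblast markers found in the table summed to between 185 and 265 without and to between 891 and 969 with doxorubicin in WT cells, of which Gcm1 was 768 and 764 in the treated replicates. Their sum went from between 145 and 396 to between 469 and 608 in Cfp1-/- cells. In untreated WT cells Gcm1 had 29.7 and 43.8. Eomes fell in WT cells from 124 and 161 to 49.8 and 68.7, and Cdx2 from 11.9 and 30.2 to 0 and 2.11. Gata3 and Hand1 rose there, to at most 91.9, and Elf5 and Plac1 had at most 5.28. The log2 fold change of Eomes in Cfp1-/- cells was -1.98. The 7 blood markers summed to between 178 and 264 without and to between 1034 and 1516 with doxorubicin in WT cells. In Cfp1-/- cells the sum was 617 and 904 against 2293 and 2487. Itga2b, 1 of the 230 genes, and Laptm5 made up most of the sum in every library. In Cfp1-/- cells Itga2b rose from 71.4 and 65.1 to 1526 and 1839. Laptm5 had 222 and 134 in untreated and 884 and 508 in treated WT cells. In Cfp1-/- cells Laptm5 had 798 and 506 untreated and 710 and 589 treated, a log2 fold change of 0.04. The blood genes Hbb-b1 and Tyrobp were at or under 3 counts throughout. The 8 fibroblast markers went from between 245 and 262 to between 424 and 572 in WT cells and from 138 in both replicates to between 406 and 556 in Cfp1-/- cells, with Lum at or under 3 counts in every library. The 8 primitive endoderm markers were between 691 and 971 untreated and between 884 and 1045 treated in WT cells, and between 3402 and 3446 and between 3229 and 3281 in Cfp1-/- cells. Col4a1 made up most of these sums, with 494 and 708 in untreated WT and 2908 and 3036 in untreated Cfp1-/- cells. Gata6, Gata4, Sox17 and Foxa2 had at most 42.9 normalized counts in any library. Pdgfra, a member of the 230, went from 22.9 and 32.3 to 238 and 193 in WT cells. In Cfp1-/- cells it went from 125 and 183 to 451 and 446. The 7 neural markers found were between 3893 and 4812 and between 2794 and 5009 in WT cells, and between 2422 and 3287 and between 2343 and 2426 in Cfp1-/- cells. Single markers moved in opposite directions within these sums. Pax6 went from 1761 and 738 to 74.7 and 27.5 in WT cells, and Neurod1 from 124 and 94.9 to 701 and 685. In Cfp1-/- cells their log2 fold changes were -3.07 and 2.30. Nes alone had 1026 and 3036 in the untreated WT replicates. The 8 skeletal or cardiac muscle markers were between 14920 and 15417 untreated and between 8043 and 9768 treated in WT cells, and between 8656 and 8944 and between 6817 and 7238 in Cfp1-/- cells. Ttn made up most of that sum, with 14364 and 14682 in untreated and 6966 and 8540 in treated WT cells. The muscle factors Myod1 and Myog and the muscle kinase Ckm went the other way, from 0 to 10.2 normalized counts in the untreated replicates of both lines to 23.5 to 185 in the treated ones, and all 3 were called higher in Cfp1-/- cells. Tnnt2 was also called higher there, with a log2 fold change of 1.48. Actn2, Myh6 and Acta1 were not called, with log2 fold changes of 0.67, 0.07 and -0.06. The part of other cell types in the rise of the 230 genes was not tested.

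Extracellular matrix proteins and their proteases formed a group of 18, of which 17 were called higher in Cfp1-/- cells, with a median log2 fold change of 3.33. Ltbp2, a protein of elastic microfibrils, had 16.1 and 20.8 counts in untreated and 1184 and 958 in treated WT cells, and 28.7 and 30.4 against 747 and 935 in Cfp1-/- cells. Podn, a small leucine-rich proteoglycan, went from 31.5 and 14.4 to 585 and 570 in Cfp1-/- cells. Adamts2, the protease that trims fibrillar procollagens, went from 15.8 and 29.6 to 455 and 616 there. Hmcn2, an extracellular fibulin-family protein, went from 164 and 79.4 to 938 and 975, and Adam8, a membrane metalloprotease, from 190 and 123 to 859 and 960. Both of these had higher untreated counts in Cfp1-/- cells than in WT cells, where they lay between 22.9 and 53.2. Matn1, the cartilage matrix protein matrilin-1, reached only 99.1 and 126 in treated Cfp1-/- cells against 528 and 383 in treated WT cells, although its log2 fold change of 3.32 ± 0.36 passed the test.

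Secreted ligands and immune effectors numbered 12, and all 12 were called higher. Bmp7, a bone morphogenetic protein, rose from 53.8 and 39.7 to 374 and 387 in Cfp1-/- cells, and Kcp, a secreted modulator of Bmp signalling, from 22.2 and 30.4 to 306 and 375. Pgf, a ligand of the Vegf receptor Flt1, rose from 7.42 and 7.61 to 277 and 391, a log2 fold change of 5.49 ± 0.40. Cbln2, a secreted organiser of synapses, rose from 10.2 and 5.07 to 428 and 494, a log2 fold change of 5.95 ± 0.38. Masp2, a protease of the complement lectin pathway, went from 44.5 and 38.9 to 249 and 304. Angptl2, a secreted angiopoietin-like protein, reached 131 and 135 in treated Cfp1-/- cells and 436 and 388 in treated WT cells.

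Cell surface receptors numbered 20, with 19 called higher and a median log2 fold change of 3.19. Robo3, a receptor of axon guidance, rose in Cfp1-/- cells from 30.6 and 24.5 to 448 and 522, and S1pr3, a sphingosine 1-phosphate receptor, from 18.5 and 23.7 to 326 and 383. Tas1r1, a subunit of the umami taste receptor, had 609 and 522 in treated WT and 369 and 381 in treated Cfp1-/- cells. Fas (chr19:34365149-34402260) had 13.6 in both untreated WT replicates and 309 and 400 after treatment, and rose in Cfp1-/- cells from 17.6 and 28.7 to 296 and 592. Fas lies in the part of chromosome 19 that 1 sequencing run lost, and from the first run alone replicate 1 had 459 and the log2 fold change went from 4.29 to 4.52. Cd80, the T cell costimulatory ligand, had 55.2 and 33.4 in untreated WT cells, 452 and 391 in treated WT cells, 153 and 130 in untreated Cfp1-/- cells and 303 and 234 in treated ones. The fitted change of 0.97 ± 0.27 (log2) in Cfp1-/- cells had an adjusted p of 0.013 and was under 2.5-fold.

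Adhesion molecules numbered 8, with 7 called higher and the highest median of the groups, 3.94. Itga2b, the alpha chain of the platelet fibrinogen receptor, rose in Cfp1-/- cells from 71.4 and 65.1 to 1526 and 1839 and had 34.0 and 25 against 609 and 485 in WT cells. Fat2, a giant cadherin of epithelia, rose in Cfp1-/- cells from 87.1 and 139 to 1908 and 2314 and had 42.5 and 27.1 against 764 and 722 in WT cells. Both genes were thus higher in treated Cfp1-/- than in treated WT cells in every replicate. Itga4 and Itgb2, integrin chains of leukocytes, reached 345 and 538 and 236 and 279 in treated Cfp1-/- cells, and Pvrl4, the adherens junction protein nectin-4, reached 644 and 686. Dscaml1, an immunoglobulin-family adhesion protein of neurons, reached 153 and 130 there against 377 and 215 in treated WT cells.

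Pcdha11, a clustered protocadherin, was the exception among the 230. It had 35.7 and 54.2 counts in untreated and 307 and 184 in treated WT cells, and 33.4 and 33 in untreated and 37.8 and 26.0 in treated Cfp1-/- cells. The fitted log2 change in Cfp1-/- cells was -0.01 ± 0.39 (adjusted p = 0.98), and it was the only gene of the 230 whose Cfp1-/- replicates overlapped. The value was 0.20 with total counts as library sizes and 0.24 when replicate 2 of treated Cfp1-/- cells was left out. The difference between the lines was not tested, since the rule used the WT change. The annotated entry of Pcdha11 spans 257373 bases with 24688 bases of exon. Whether its counts come from 1 protocadherin of the cluster alone was not examined.

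Ion channels and transporters numbered 17, of which 16 were called, with a median of 3.04. In Cfp1-/- cells the potassium channels Kcnj4 and Kcna6 rose from 16.7 and 11.8 to 373 and 457 and from 7.42 and 11.8 to 299 and 345. Slc2a4, the insulin-responsive glucose transporter Glut4, rose from 40.8 and 20.3 to 692 and 758, which was above the 464 and 361 of treated WT cells. Pkd1l2, a polycystin family protein, and Slc6a13, a GABA transporter, started at 104 to 147 and 82.5 to 117 counts in Cfp1-/- cells, against 11.5 to 16.1 and 3.40 to 14.6 in WT cells, and still passed the test with log2 fold changes of 2.78 and 2.79. Cacna2d2, an auxiliary calcium channel subunit, rose from 62.1 and 47.3 to 230 and 303. Slc13a5, the plasma membrane citrate transporter, had 549 and 233 counts in untreated and 706 and 685 in treated Cfp1-/- cells. It had 45.9 and 20.8 against 217 and 192 in WT cells, so untreated Cfp1-/- replicates were already above treated WT replicates. The fitted log2 change of 0.87 ± 0.38 did not pass (adjusted p = 0.083), and without replicate 1 of untreated Cfp1-/- cells, the library at 549, it was 1.61 (adjusted p = 0.0095) and was called.

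**Figure D4:**
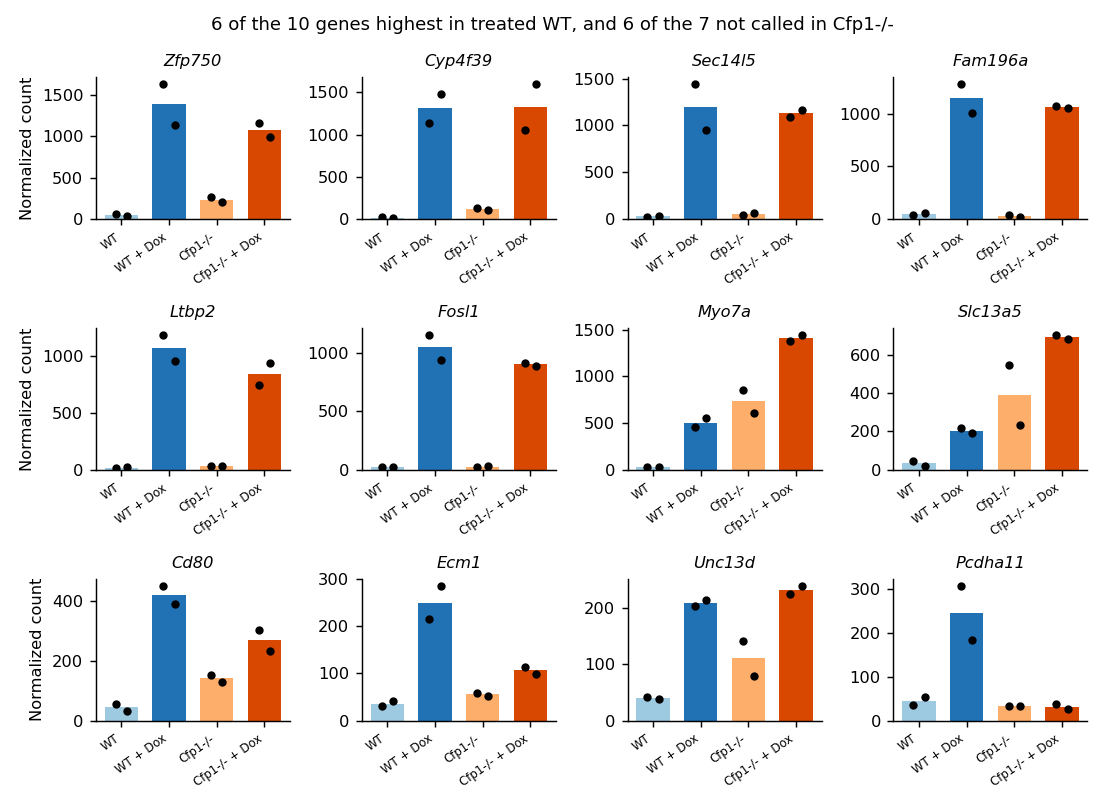
Normalized counts of 12 genes in the 4 groups, with bars for the mean of 2 biological replicates and points for the replicates. Zfp750, Cyp4f39, Sec14l5, Fam196a, Ltbp2 and Fosl1 reached similar treated levels in both lines, while Myo7a and Slc13a5 were already high in untreated Cfp1-/- cells and Pcdha11 stayed at 26.0 to 37.8 counts there.

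Contractile, keratin and myosin genes numbered 7, with 6 called and a median of 2.92. Krt5 (chr15:101537501-101543322), the basal keratin of stratified epithelia, had 2 and 2 raw counts in untreated and 207 and 324 in treated WT cells. In Cfp1-/- cells it had 3 and 0 raw counts untreated and 114 and 209 treated, and no fold is given for a start at this floor. Krt15, its partner in basal cells, had 1.70 and 5.21 counts in untreated and 238 and 374 in treated WT cells and went from 10.2 and 20.3 to 384 and 539 in Cfp1-/- cells. Myo15b, an unconventional myosin, went from 100 and 92.1 to 618 and 793. Myh7, the slow cardiac myosin heavy chain, reached 138 and 340 from 59.3 and 89.6, and its call (log2 fold change 1.72 ± 0.40, adjusted p = 0.0058) was lost without replicate 2 of treated Cfp1-/- cells, where the value was 0.93 (adjusted p = 0.066), and without replicate 1 of untreated Cfp1-/- cells (adjusted p = 0.051).

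Myo7a (chr7:105199570-105268034), the myosin of hair cell stereocilia, had the highest untreated level of the 230 in Cfp1-/- cells. It had 32.3 and 31.3 counts in untreated and 453 and 549 in treated WT cells, and 857 and 609 in untreated and 1378 and 1446 in treated Cfp1-/- cells. The fitted log2 change in Cfp1-/- cells was 0.99 ± 0.19 (adjusted p = 0.0023), which is under 2.5-fold. The mean of untreated Cfp1-/- cells was above 100 in 30 of the 230 genes and above 200 in 8, while the rule held that of untreated WT cells to at most 50.

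The axoneme and microtubule group held 8 genes, all called higher, with a median of 3.27. Dnahc2, Dnahc10 and Dnahc17, heavy chains of the dynein motors of cilia, had 201 and 141, 223 and 195, and 129 and 94.7 counts in untreated Cfp1-/- cells, each above every untreated WT replicate. After doxorubicin they reached 1156 and 1541, 594 and 674, and 636 and 744 there. Rsph6a, a radial spoke protein of motile cilia, had 781 and 580 in treated WT cells and 212 and 301 in treated Cfp1-/- cells. Dnaic1, a dynein intermediate chain, rose from 40.8 and 29.6 to 309 and 345, and Ttll9, a polyglutamylase-family tubulin ligase, from 23.2 and 20.3 to 156 and 255. Agbl2, a carboxypeptidase that trims tubulin tails, rose from 35.2 and 23.7 to 482 and 599. Mapre3, a microtubule plus-end protein, went from 35.2 and 22.8 to 618 and 626 in Cfp1-/- cells, and differed 605 to 302 between treated WT replicates.

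In signalling, all 24 genes for regulators of G proteins, kinases and phosphatases were called, with a median of 3.45. Arhgap20, a GTPase activating protein, had 43.3 and 32.3 counts in untreated and 1015 and 929 in treated WT cells and went from 90.9 and 88.7 to 1839 and 1873 in Cfp1-/- cells (log2 fold change 4.41 ± 0.18, adjusted p = 2.2e-06). Gnal, the olfactory G protein alpha subunit, rose from 242 and 151 to 1325 and 1381. Plch2, a phospholipase C, had a larger fitted change, 5.29 ± 0.33, from 23.2 and 16.9 to 683 and 846. Plekhg6, Psd2 and Arhgef33, exchange factors for small GTPases, reached 419 and 440, 591 and 892, and 513 and 627 in treated Cfp1-/- cells. Adcy5, an adenylyl cyclase, rose from 64.0 and 49.0 to 468 and 600.

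Genes of exocytosis and the synapse numbered 8, with 7 called and a median of 3.81. Sytl1, a Rab27 effector of granule release, rose in Cfp1-/- cells from 28.7 and 22 to 513 and 577, close to the 554 and 579 of treated WT cells. Unc13c, a vesicle priming factor, rose from 5.56 and 5.92 to 199 and 328, a log2 fold change of 5.53 ± 0.42, and Mpp4, a scaffold of photoreceptor terminals, from 15.8 and 16.9 to 462 and 596. Mpp2 reached 226 and 414, and Dnm1, the neuronal dynamin, reached 202 and 251 in treated Cfp1-/- cells with treated WT replicates at 334 and 135. Unc13d, the priming factor of cytotoxic granules, had 141 and 79.4 counts in untreated and 225 and 239 in treated Cfp1-/- cells, with 41.6 and 37.5 against 203 and 214 in WT cells. The fitted log2 change of 1.12 ± 0.29 (adjusted p = 0.010) was under 2.5-fold, and was 1.58 without replicate 1 of untreated Cfp1-/- cells, which made it a call.

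All 22 metabolic enzymes were called, with a median of 3.6. Cyp4f39 (chr17:32605404-32630265), a fatty acid hydroxylase of the epidermal barrier, had 15.3 and 13.6 counts in untreated and 1141 and 1482 in treated WT cells, and 122 and 98.9 against 1050 and 1602 in Cfp1-/- cells. The treated levels overlapped, and the untreated Cfp1-/- replicates lay above untreated WT replicates. Neu3, the plasma membrane sialidase, went from 251 and 210 to 1858 and 1785 in Cfp1-/- cells and had 736 and 421 in treated WT cells. Art4, an ADP-ribosyltransferase family protein of the red cell surface, rose from 13.9 and 2.54 to 501 and 521, a log2 fold change of 6.01 ± 0.46. Acaa1b, a peroxisomal thiolase, had 500 and 533 in treated WT and 441 and 452 in treated Cfp1-/- cells. Extl1, a heparan sulphate glycosyltransferase, reached 208 and 175, and Them5, a mitochondrial thioesterase, 428 and 501 in treated Cfp1-/- cells.

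**Figure D5:**
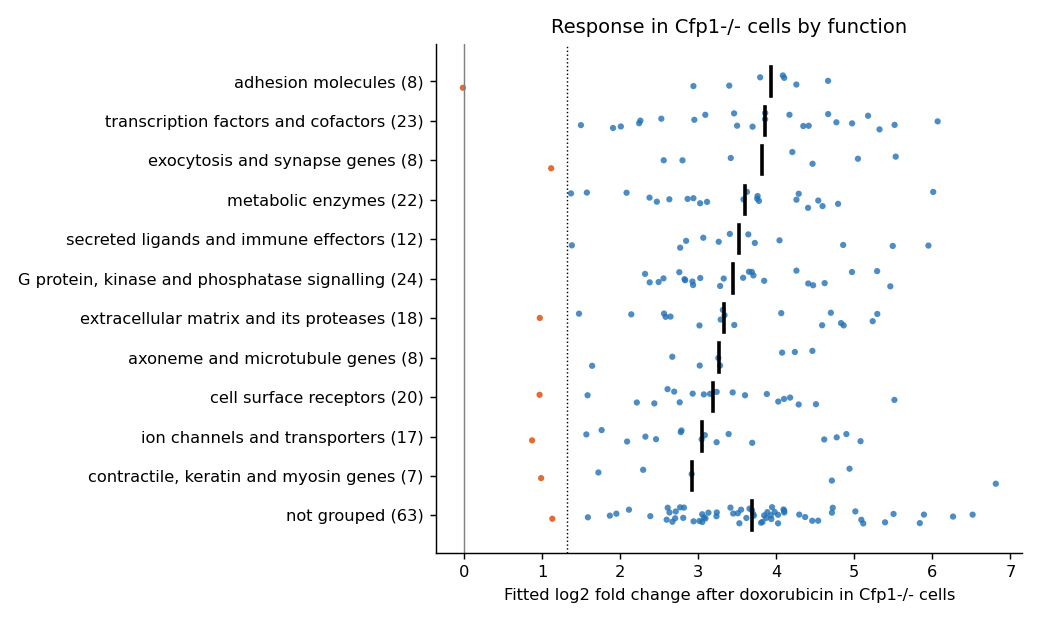
Fitted log2 fold change after doxorubicin in Cfp1-/- cells for each of the 230 genes by function, with the number of genes in parentheses, the group median as a bar, called genes in blue and the 7 others in orange. Group medians lay between 2.92 and 3.94, and the dotted line marks 2.5-fold.

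The remaining 63 genes fell in none of these groups, and 62 of them were called, with a median of 3.69. Nsun7 (chr5:66651151-66689255), an RNA methyltransferase family protein, had the largest fitted change among genes that started above the floor of 3 counts, at 6.52 ± 0.40 (adjusted p = 5.5e-06), from 4.64 and 5.92 to 490 and 473. Eef1a2, the elongation factor of muscle and neurons, rose from 13 and 3.38 to 511 and 707, a log2 fold change of 6.27 ± 0.42. Sec14l5, a lipid-binding protein family member, reached 1091 and 1168 in treated Cfp1-/- cells and 1446 and 954 in treated WT cells. Fam196a reached 1069 and 1051 in treated Cfp1-/- and 1282 and 1008 in treated WT cells, and A430110N23Rik reached 1335 and 1340 and 1044 and 606. Sbsn, a suprabasal epidermal protein, rose from 34.3 and 21.1 to 589 and 834, and Anxa8, an annexin, from 260 and 145 to 721 and 797. The gene 1810041L15Rik, singled out after its values were seen, had the lowest treated level in Cfp1-/- cells, with 3 and 2 raw counts untreated and 21 and 31 treated, against 7 and 15 and 226 and 299 in WT cells.

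Ecm1, a matrix glycoprotein of the skin, and Wdr96, which encodes a WD repeat protein of cilia, were also not called. Ecm1 had 59.3 and 52.4 counts in untreated and 114 and 98.3 in treated Cfp1-/- cells, with 31.4 and 40.7 against 215 and 286 in WT cells, and a log2 fold change of 0.97 ± 0.28 (adjusted p = 0.018). Wdr96 had 137 and 142 untreated and 215 and 379 treated, a log2 fold change of 1.13 ± 0.31 (adjusted p = 0.014). From the first run alone replicate 1 had 334, and with it the change was 1.39 (adjusted p = 0.0016) and was called. Of the 7 genes not called, 5 had an adjusted p under 0.05 with a fold change under 2.5, and Pcdha11 and Slc13a5 passed neither limit.

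The other genes on the affected part of chromosome 19 were called with and without the second run. In replicate 1 of treated Cfp1-/- cells, Pygm, the muscle glycogen phosphorylase, went from 236 with both runs to 365 with the first alone, Apba1, a presynaptic adaptor, from 208 to 323, and Ccdc88b, a microtubule-linked protein of immune cells, from 369 to 571. Slit1, a repellent ligand of axons, went from 254 to 394, Trpm6, the magnesium channel, from 203 to 315, and Vwce from 295 to 457. Mlana, an antigen of melanocytes, went from 374 to 579, Ppp1r3c, a glycogen-targeting phosphatase subunit, from 106 to 165, Calhm2 from 119 to 185 and Hhex, a homeobox factor of endoderm and blood, from 110 to 169. Of the 12 genes 11 were called with both runs and 12 without the second. Without these 12 genes, 212 of the remaining 218 were called. The calls of Trpm6, Calhm2 and Hhex were lost without replicate 2 of treated Cfp1-/- cells, as was that of Cpm, a membrane carboxypeptidase. Fits that left out a replicate kept the run with the gap. Here the only treated Cfp1-/- value of Trpm6, Calhm2 and Hhex was therefore the affected one. Without replicate 2 of untreated Cfp1-/- cells, Calhm2 (log2 fold change 1.32, under 2.5-fold), Hhex (adjusted p = 0.073) and Cpm (adjusted p = 0.066) were not called.

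The 230 genes met the fixed lists of related genes only in part. In the p53 target list 40 of 64 tested genes were called higher in Cfp1-/- cells and 0 lower, with a median log2 fold change of 1.71. Fas and Cd80 of the list were among the 230, and genes with an untreated WT mean above 50 could not enter that set. Of the 62 others, 39 were called higher. In the epidermal barrier and adhesion list 20 of 41 tested genes were called higher and 1 lower, with all 6 that belong to the 230 among the higher (Anxa8, Fat2, Krt5, Pvrl4, Sbsn and Zfp750) and 14 of the 35 others. In the motile cilium list 21 of 38 were higher and 0 lower, with all 7 of the 230 (Dnahc2, Dnahc10, Dnahc17, Dnaic1, Foxj1, Rsph6a and Ttll9) and 14 of 31 others. In the sarcomere and muscle list 22 of 38 were higher and 0 lower, with both that belong to the 230, among them Pygm, and 20 of 36 others. In the hair cell and sensory list 14 of 20 were higher and 2 lower, with Pou4f3 and Tas1r1 but not Myo7a, and with 12 of 17 others.

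These counts are to be read beside the 18.6% called higher among all tested genes and the 44.9% among those low in untreated WT cells, and the same holds for gene families. Of 41 tested collagen genes 21 were called higher and 0 lower, 2 of them (Col16a1 and Col22a1) from the 230. Col22a1 went from 107 and 92.1 to 536 and 604 in Cfp1-/- cells, and Col16a1 from 28.7 and 37.2 to 279 and 350. Of 23 Adamts genes 10 were higher and 0 lower, and of 25 integrin genes 11 were higher and 1 lower, with 1 and 3 of the higher genes from the 230. Of 102 entries in a list of voltage-gated and inward rectifier channel genes 54 were higher and 3 lower, with 4 of the higher from the 230. Symbol patterns made this list, so it also held Kcnk and Kcnn potassium channels, which are of neither kind. Kcnh8 and Scn8a had 2 entries each. Median log2 fold changes of these lists and families other than the p53 list lay between 0.89 and 2.75, beside 0.01 over all tested genes, and each list was chosen with results of these data known.

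The response in Cfp1-/- cells was also split by the features of the gene start, as a description with no test. The 72 genes with a CpG-rich start had a median log2 fold change of 3.51 with 70 called, and the 158 others 3.50 with 153 called. The limits of the rule were met in Cfp1-/- cells by 46 of the 72 and 75 of the 158, and the median difference of the Cfp1-/- from the WT change was -0.27 and -0.61. The 31 genes with a p53 site match had a median of 3.34 with 28 called, and the 199 others 3.51 with 195 called, with median differences from the WT change of -0.88 and -0.42. In 21 of the 230 genes (9.13%) the nearest upstream gene on the same strand ended within 20 kb or overlapped and was itself called higher in Cfp1-/- cells, against 5.15% of all tested genes and 6.42% of the near-silent genes that stayed under 200. The share was 8.96% of the genes raised from above 50 and 9.71% of the 175 other genes that met the limits in Cfp1-/- cells, so it was not particular to the 230. Examples are Foxj1, 0.953 kb from Rnf157, and Krt15, 4.86 kb from Krt19. The part of transcription from a neighbour was not tested. Members lay on all 19 autosomes, with 24 on chromosome 11, 22 on chromosome 4 and 21 on chromosome 7, and none lay on X, which held 3.63% of the tested genes. Exons of another gene on the same strand overlapped 7 of the 230 (Klhdc7a, Mpp4, Nat6, Nrp1, Rhbg, Tmem229a and Wdr96), and reads on shared stretches were not counted. All but Wdr96 of these were called.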

How the data were processed

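Libraries were strand-specific and depleted of ribosomal RNA. The authors aligned the reads to mm9 with STAR (version 2.2.1 in the submitters' processing notes) and counted them on exons with HTSeq. They deposited raw counts for each technical replicate. They also deposited a normalized signal for each biological replicate, which equals its summed counts over a size factor from DESeq. One label gives the dose as 1 mM, but the protocol and design give 1 µM, used here.

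Technical replicates were summed (n = 2 per group) and fitted over all 8 biological replicates with edgeR 4.0.16 in R 4.3.3 (filterByExpr, TMM, quasi-likelihood test, Benjamini-Hochberg over 15758 genes), after a test on simulated data. Standard errors came from the test statistic. Levels are the deposited normalized counts.

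The 230 genes, the gene lists, the function groups and the tests were chosen with earlier results of these data known. Genes named are the 10 highest in treated WT cells, the 10 largest fitted Cfp1-/- changes, those not called, those at the limits of the rule, list members, up to 6 per function group, and those on the lost part of chromosome 19. Coordinates are those of the deposited tables (mm9). Promoters and p53 sites were read from the NCBIM37 genome with GENCODE vM1, in which 22324 of 22375 identifiers were found. Repeats were not masked. Alternatives tried were other scalings, DESeq2 1.42.0, filters, call limits, runs and leaving out each replicate. Standard errors include the spread between replicates as the fit estimated it, while floors cover counting error only. A few genes and 1 gene family are not reported here.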

Additional observations from a re-analysis of the deposited data

How the results depend on the processing

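The number of the 230 genes called higher in Cfp1-/- cells was 223 with DESeq2 size factors, without a filter, in a fit of the 4 Cfp1-/- replicates alone and in DESeq2's Wald test, and 225 with total counts as library sizes. With total counts the median log2 change over all genes went from 0.01 to 0.23 and that of the 230 from 3.50 to 3.72, so the distance between them stayed at 3.49. Calls over all genes were 82.3% higher with TMM and 89.2% with total counts. Leaving out each replicate in turn gave 215 to 223 calls and a median of 3.41 to 3.62. The rule gave 223 to 241 genes over the replicates left out, and 114 to 125 of the 230 met its limits in Cfp1-/- cells. Replicate numbers 1 and 2 are shared between groups but the labels do not say that they pair cultures. With the replicate block 223 of the genes were called and the median was 3.51. Deviations of same-numbered replicates correlated at 0.14 to 0.45 over 6 pairs of groups. Stricter limits left fewer genes by construction. An untreated mean of at most 25 left 111 genes, of which 111 were called with a median of 4.04 and 50 met the limits in Cfp1-/- cells. A treated mean of at least 400 left 80 genes, of which 78 were called and 35 met the limits. When a call also required 200 normalized counts on average over the Cfp1-/- replicates, 115 of the 230 were left. The sign of Pcdha11 turned to 0.20 with total counts and to 0.24 without replicate 2 of treated Cfp1-/- cells, and its lowest value, without replicate 1 of them, was -0.33. With 2 replicates per group and up to 3 counts in some untreated libraries, folds of the lowest genes are imprecise.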
